A study of Homo sapiens with 9 samples.

Results

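The genes described here carry, store, convert, clear or sense retinoids, and were chosen by name: LRAT, RARA, RARB, RARG, CYP26A1, CRABP1, CRABP2, STRA6, DHRS3 and RDH10. Of these 10 genes, 8 were represented by a probe set annotated with 1 gene symbol, each by a single probe set, among 18417 genes measured in all. RARA was represented only together with another gene, and CRABP1 is not analysed here. The set was put together around the changes of LRAT and RARB, so the values of those 2 genes are given below as a description, with no test. The 9 Affymetrix arrays measured RNA of H9-TCF7L1 cells, a derivative of H9, an established human embryonic stem cell line, that carries a TCF7L1 transgene. The 3 untreated arrays came from cells in mTeSR1, which keeps stem cells pluripotent. The 3 arrays of PS medium came from cells kept 48 h in primitive streak (PS) differentiation medium. The 3 arrays of PS medium with Dox came from cells given that medium together with 1 ug/ml doxycycline (Dox), which turns on the transgene, for 48 h. All groups carried the transgene, and no group received Dox without PS medium or without the transgene.

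Retinol enters cells through STRA6 and is stored as an ester made by LRAT. RDH10 oxidises retinol to retinaldehyde, DHRS3 reduces retinaldehyde back to retinol, and enzymes of the ALDH1A group turn retinaldehyde into retinoic acid. CRABP2 carries retinoic acid to its nuclear receptors RARA, RARB and RARG, which bind DNA with an RXR partner, and CYP26A1 degrades the acid. RARB, CYP26A1, DHRS3, CRABP2 and STRA6 are themselves widely used as genes that retinoic acid raises. In the embryo retinoic acid patterns the body axis after gastrulation, and CYP26A1 is known from the gastrula as a gene that protects tissue from it.

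The receptors bind direct repeats of a 6-base half-site, and a spacing of 5 bases (a DR5 element) is the form best known for retinoic acid. Promoter windows of 300 bases, from 250 before to 50 after annotated starts, were taken from RefSeq (GRCh38.p14), with 21 windows for 9 of the 10 genes. Windows were searched on both strands for pairs of half-sites in the same orientation. The forms allowed were AGGTCA with its variant GGGTCA, and likewise AGTTCA with its variant GGTTCA. A DR5 match was present in 1 of 4 RARB windows and 1 of 2 CYP26A1 windows, against 31 of 35116 windows of all genes (0.0883%). No window of the 9 genes matched at a spacing of 1 base (0.131% of all windows) or 2 bases (0.0399%), or held the TCF/LEF motif CTTTGAT (2.62%), so no match overlapped another. The 140 bases before the start are printed for both genes, because both hold a DR5 match, with half-sites and spacers that differ in part, and their levels differed in course below. Capitals mark the half-sites, which in CYP26A1 read as AGTTCA on the opposite strand. The RARB stretch is chr3:25428123-25428262 on the plus strand, and the CYP26A1 stretch is chr10:93073753-93073892 on the plus strand.
RARB: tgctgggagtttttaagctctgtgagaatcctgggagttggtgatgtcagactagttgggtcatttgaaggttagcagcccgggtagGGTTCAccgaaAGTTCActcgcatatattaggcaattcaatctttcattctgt
CYP26A1: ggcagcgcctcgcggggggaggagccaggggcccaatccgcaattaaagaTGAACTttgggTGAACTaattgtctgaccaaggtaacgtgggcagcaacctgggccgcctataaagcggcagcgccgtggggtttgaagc
The RARB match lay 53 to 37 bases before its start and the CYP26A1 match 90 to 74 bases before its start. A match describes these letters only, and the probe sets do not tell which start was used.

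Values are the intensities of probe sets as deposited, before any log, and array medians ran from 200.4 to 216.5. Differences are on the scale of log2(intensity + 16) after quantile normalization, which understates the change of dim genes, and they were tested with limma over all 18417 genes at an adjusted p of 0.05. TCF7L1, the gene that Dox was used to raise, had intensities of 3718, 3878 and 3572 on the untreated arrays, 1275, 1542 and 1611 on the PS arrays and 13100.2, 12433 and 2699 on the Dox arrays. The third Dox array was thus the lowest of its group, below every untreated array and above every PS array. The Dox differences given for RARB, MEIS1 and MEIS2 are also given without the third Dox array. The third PS array also stood apart, with all 4 endoderm markers at their highest of the group (SOX17, FOXA2, CXCR4 and HHEX at 1.64 to 3.17 times the mean of the other 2 arrays). Nothing in the labels says that replicates were separate cultures, so p-values measure only how these samples spread, possibly for technical reasons.

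STRA6, the retinol uptake receptor, read 433.8, 482.2 and 472.1 on the untreated arrays, 368.4, 439.9 and 868.7 on the PS arrays and 248.9, 309.9 and 293.5 on the Dox arrays. All Dox arrays lay below all others, while the PS arrays spread on both sides of the untreated ones, with replicate 3 at 2.15 times the mean of the other 2. STRA6 was lower with Dox than in PS medium by 0.84 ± 0.24 (log2, SE, n = 3 per group, limma adjusted p = 0.0339). Leaving out PS replicate 3 gave a smaller difference of -0.49 that passed, whereas the call was lost without any single untreated or Dox array (adjusted p 0.0513 to 0.122) and when only these 2 groups were fitted (0.0837). Against untreated cells the Dox difference was -0.69 ± 0.24 (adjusted p = 0.0518, and 0.0185 with the replicate number as a block). That difference passed when only these 2 groups were fitted (0.000891) and without PS replicate 3 (0.000791), so the miss depends on pooling the spread of the PS arrays. PS medium and untreated cells differed by 0.15, with a 95% interval from -0.38 to 0.68 (adjusted p = 0.697).

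LRAT, the storage enzyme, was high in untreated cells alone. It read 1506, 1141 and 1390.8 on the untreated arrays, 41.3, 64.2 and 67.0 on the PS arrays and 41.8, 36.0 and 35.4 on the Dox arrays. Every differentiated array was far below every untreated one, and the PS and Dox arrays overlapped. Untreated cells were 18.8-fold above PS medium (log2 difference -4.23 of PS medium against untreated, 23.4-fold on deposited means) and 25.3-fold above PS medium with Dox. In the dimmest 25% of all probe sets lay 1 of 3 PS arrays and all 3 Dox arrays, and the difference of PS medium from untreated moved to -3.54 when 64 was added before the log and to -4.55 when 1 was added. LRAT stayed low with Dox (Dox against PS medium -0.43), and 3 of 7 measured pluripotency markers rose against PS medium (SOX2, PRDM14 and DPPA4), beside 8.91% of all genes called higher. The 7 markers, all with signal in each group, summed to between 27466 and 29199 on the untreated arrays, 18517 and 20323 on the PS arrays and 23210 and 24282 on the Dox arrays. SOX2 alone had means of 4274 in untreated cells, 807 in PS medium and 3570 with Dox. In bulk RNA, fewer cells of a type and less RNA per cell cannot be told apart.

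**Figure D1:**
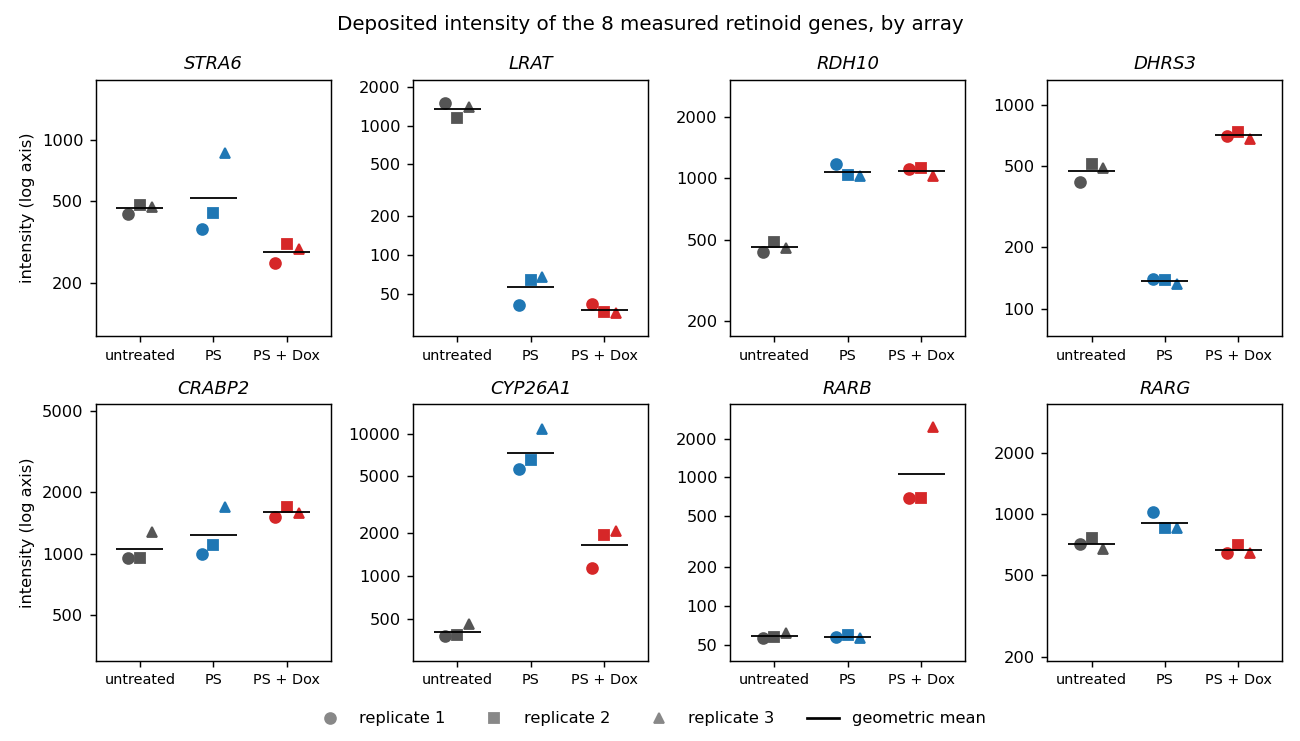
Deposited intensity (log axis) of the 8 measured retinoid genes on each array, by group, with marker shapes for replicates and bars at the geometric mean. LRAT is high only on the untreated arrays (1141 to 1506), CYP26A1 is highest on the PS arrays (5641 to 10690), RARB is above 62.2 only on the Dox arrays (691 to 2465), and DHRS3 is lowest on the PS arrays (133 to 140).

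RDH10, which starts the oxidation of retinol, read 435, 486 and 455 on the untreated arrays, 1176, 1037 and 1026 on the PS arrays and 1111, 1116 and 1023 on the Dox arrays. The differentiated arrays all lay above the untreated ones and overlapped each other. RDH10 rose 2.28-fold in PS medium (log2 1.19 ± 0.08, adjusted p = 2.03e-06) and was 2.29-fold above untreated cells with Dox (adjusted p = 2.09e-06). With and without Dox it differed by 0.01, with a 95% interval from -0.18 to 0.19.

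DHRS3, which works in the reverse direction, followed another course. Its intensities were 418, 513 and 489.9 on the untreated arrays, 140.4, 138.5 and 132.5 on the PS arrays and 707, 737 and 679.7 on the Dox arrays. The 3 groups did not overlap, PS medium being lowest and PS medium with Dox highest. PS medium lowered DHRS3 3.19-fold (-1.67 ± 0.09, adjusted p = 2.72e-07). Adding Dox gave 4.64-fold more DHRS3 than PS medium alone (2.21 ± 0.09, adjusted p = 1.97e-07) and 1.46-fold higher than in untreated cells (0.54 ± 0.09, adjusted p = 0.000837). The third Dox array, low in TCF7L1, was at 0.94 times the mean of the other 2 for DHRS3.

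CRABP2, the carrier of retinoic acid, read 958, 949.7 and 1284 on the untreated arrays, 999, 1098 and 1696 on the PS arrays and 1515, 1695 and 1586 on the Dox arrays. The Dox arrays exceeded every untreated array, and the PS arrays overlapped both groups. PS replicates 1 and 2 lay within the untreated range, and replicate 3, at 1.62 times their mean, lay above every untreated array and within 1 unit of the highest Dox array. Against untreated cells CRABP2 rose 1.48-fold with Dox (0.57 ± 0.17, adjusted p = 0.0310), a call lost without untreated replicate 1 or 2 or any single Dox array (adjusted p 0.0608 to 0.113). Dox and PS medium differed by 0.37 ± 0.17 (adjusted p = 0.190), or by 0.60 without PS replicate 3 (adjusted p = 0.00848), and the difference also passed with the replicate number as a block (0.0483). PS medium and untreated cells differed by 0.19 ± 0.17 (adjusted p = 0.474).

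CYP26A1, the enzyme that clears retinoic acid, showed the highest rise of the set in PS medium. It read 381, 383 and 458 on the untreated arrays, 5641, 6563 and 10689.9 on the PS arrays and 1132, 1932 and 2074 on the Dox arrays. The 3 groups did not overlap, with PS medium with Dox between the other two. CYP26A1 rose 17.1-fold in PS medium (4.10 ± 0.25, adjusted p = 8.15e-07) and was 4.34-fold lower with Dox than without (-2.12 ± 0.25, adjusted p = 0.000199). It remained 3.94-fold above untreated cells with Dox (1.98 ± 0.25, adjusted p = 0.000169). Over all alternatives the rise in PS medium ran from 3.83 to 4.29 and the fall with Dox from -2.31 to -1.85, and all of these passed.

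Markers of the streak and of endoderm rose in PS medium and mostly fell with Dox, as CYP26A1 did. The summed intensity of the 4 endoderm markers was 1181 to 1254 in untreated cells, 5077 to 12879.7 in PS medium and 1857 to 2534 with Dox. All 4 rose in PS medium and 3 of 4 fell with Dox. The 5 streak markers summed to 1221 to 1328, 68637 to 77387 and 12709 to 19856 in the same order. Of them 5 of 5 were higher in PS medium and 5 of 5 lower with Dox. EOMES made up most of these sums after differentiation (means of 54452 and 12187). GSC and HHEX had means of 384 and 789 with Dox, beside 329 and 734 in untreated cells. While CYP26A1 stayed above untreated cells with Dox, 3 of 5 streak and 1 of 4 endoderm markers were called higher there, beside 15.3% of all genes. None of these markers was at 0 in any group, and their part in the CYP26A1 result was not tested. The third PS array had the highest CYP26A1 (1.75 times the mean of the other 2) together with the highest endoderm markers, and without it the rise in PS medium was still 3.83 (adjusted p = 1.07e-06).

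RARB, a receptor, was dim without Dox. It read 56.3, 57.1 and 62.2 on the untreated arrays and 57.5, 59.7 and 56.4 on the PS arrays, with 5 of these 6 arrays in the dimmest 25% of probe sets. With Dox it read 696, 691 and 2465, so that every Dox array lay above every other array. On the log2 scale Dox exceeded PS medium by 3.85 (14.5-fold, and 22.2-fold on deposited means) and untreated cells by 3.87. Without the third Dox array those differences were 3.24 and 3.26. The array with the least TCF7L1 of its group thus had the most RARB, at 3.55 times the mean of the other 2. PS medium and untreated cells differed by 0.02 in RARB.

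RARG, another receptor, read 710.0, 763 and 673 on the untreated arrays, 1025, 857 and 851 on the PS arrays and 646, 703.5 and 642 on the Dox arrays. All PS arrays were above all others, and untreated and Dox arrays overlapped. RARG rose 1.24-fold in PS medium (0.31 ± 0.09, adjusted p = 0.0275), a call lost without untreated replicate 1 or 3 or PS replicate 1 (adjusted p 0.0802 to 0.100). It was 1.36-fold lower with Dox than without (-0.45 ± 0.09, adjusted p = 0.00624), and that call passed in every alternative (highest adjusted p 0.0278). Dox and untreated cells differed by -0.14 (adjusted p = 0.292).

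**Figure D2:**
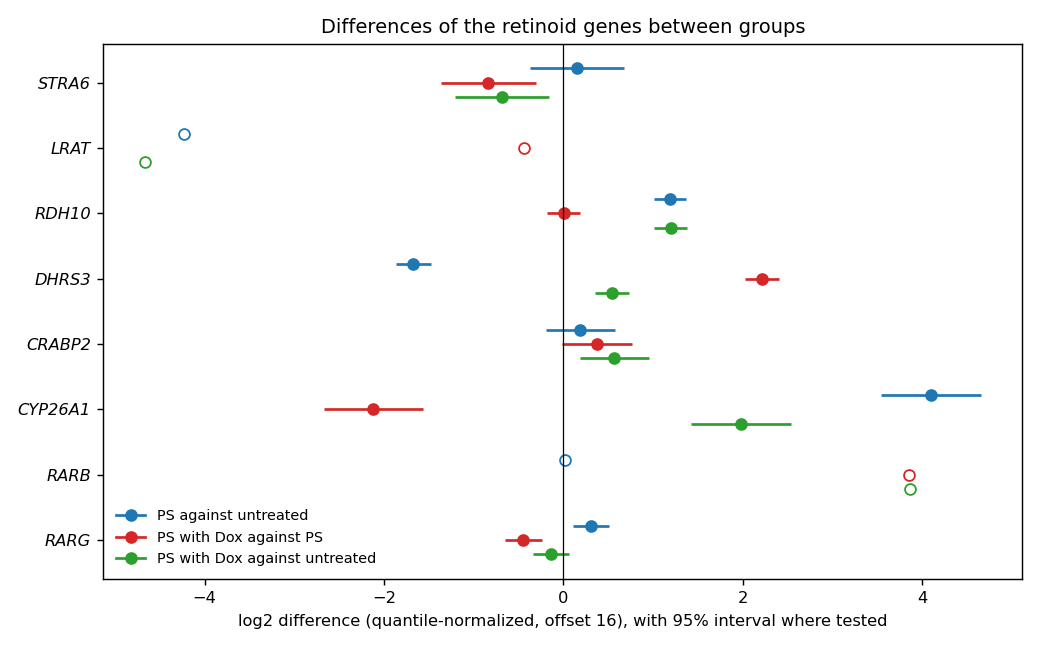
Log2 differences between groups for the 8 genes, with 95% intervals from limma; open points without intervals mark LRAT and RARB, which were not tested. CYP26A1 (4.10, then -2.12) and DHRS3 (-1.67, then 2.21) lie on opposite sides of 0 for PS medium against untreated and again in that of Dox with PS medium.

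Apart from LRAT and RARB, 6 members were measured. In PS medium 3 of them rose (RDH10, CYP26A1 and RARG) and 1 fell (DHRS3). Of all genes 29.8% were called there, 14.2% higher and 15.7% lower. With Dox against PS medium 1 rose (DHRS3) and 3 fell (STRA6, CYP26A1 and RARG), where 17.4% of all genes were called, 8.91% higher and 8.44% lower. With Dox against untreated cells 4 rose (RDH10, DHRS3, CRABP2 and CYP26A1) and 0 fell by limma, with STRA6 lower at an unadjusted p under 0.05, where 30.3% of all genes were called, 15.3% higher and 14.9% lower. With so few genes, chosen with results in view, these counts describe the members and nothing beyond them. The comparisons share arrays in pairs, so an array that stands apart shifts 2 of them.

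Counted by arrays that did not overlap, over all 8 measured members, 3 lay higher (RDH10, CYP26A1 and RARG) and 2 lower (LRAT and DHRS3) for PS medium against untreated, beside 20.7% and 21.8% of all genes. With Dox against PS medium 2 lay higher (DHRS3 and RARB) and 3 lower, beside 14.9% and 15.1%. With Dox against untreated cells 5 lay higher and 2 lower (LRAT and STRA6), beside 22.3% and 22.3%, and RARG overlapped. LRAT and RARB are in these counts by choice.

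The question behind the set was whether genes of the retinoic acid response moved the way LRAT and RARB did. RARB stood at one level in untreated cells and PS medium and was raised with Dox, and LRAT was lowered in PS medium and stayed low. Of the 4 other measured members known to be raised by retinoic acid, DHRS3 was also higher with Dox than in either other group. CRABP2 was higher with Dox than in untreated cells, a call lost in several alternatives. Against PS medium CRABP2 missed the threshold (adjusted p = 0.190), and passed with PS replicate 3 left out or with the replicate block. CYP26A1 and STRA6 were lower with Dox than in PS medium, the STRA6 call being lost in several alternatives. CYP26A1, which like RARB has a DR5 match in a promoter window, was highest in PS medium and lowest in untreated cells, and RARB was dim in both. With Dox, where RARB was high, CYP26A1 lay between those levels. Outside the members, LAMB1, NR2F1 and TSHZ1 of the list below were also higher with Dox than in either other group. Unlike RARB, LAMB1 was also higher in PS medium than in untreated cells. Of the same list, ICAM1 was lower with Dox than in either other group, and BHLHE40 and TGM2 were lower with Dox than in PS medium. None of the other 7 measured members had all differentiated arrays below all untreated arrays, as LRAT did. On the lists below, RARRES2, ICAM1, RBP7 and RDH11 did. Their falls in PS medium were 2.19-fold, 1.74-fold, 1.38-fold and 1.35-fold, beside 18.8-fold for LRAT. Of all genes 21.8% lay lower without overlap in PS medium and 22.3% with Dox, each against untreated cells.

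A wider list of 33 genes described as retinoic acid responsive, members left out, had 24 measured. In PS medium 6 rose and 3 fell (37.5%, beside 29.8% of all genes), with a median log2 difference of 0.02 against -0.01 over all genes. With Dox against PS medium 4 rose and 3 fell (29.2%, beside 17.4%), with a median of -0.00 against 0.00. With Dox against untreated cells 8 rose and 2 fell (41.7%, beside 30.3%), with a median of 0.05 against 0. Without untreated replicate 1 the calls in PS medium were 5 in place of 9, and without Dox replicate 2 those with Dox against PS medium were 4 in place of 7.

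HOX genes are the classical axial targets of retinoic acid. Of the 8 measured (HOXA2, HOXB1, HOXB2, HOXB3, HOXB4, HOXB5, HOXD3 and HOXD4), 0 were called by limma in PS medium and 0 with Dox against PS medium (1 and 0 at an unadjusted p under 0.05). Their log2 differences ran from -0.28 to 0.39 in the former comparison and from -0.08 to 0.17 in the latter. Against untreated cells HOXB2 passed with Dox (0.50, adjusted p = 0.0491), but its arrays overlapped, at 46.2, 53.8 and 60.4 untreated and 56.7, 98.5 and 87.1 with Dox. All 3 untreated arrays and 1 Dox array were in the dimmest 25% of probe sets, and no alternative was run for it. HOXB1, often the earliest to respond, had means of 213, 209.9 and 212 in untreated cells, PS medium and PS medium with Dox. CDX1, a caudal factor with a known retinoic acid element, had means of 776.5, 806 and 781, and its differences did not pass in any comparison (adjusted p 0.730 to 0.874).

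MEIS1 and MEIS2, homeobox partners of HOX proteins, were higher in differentiated cells. MEIS1 read 43.1, 52.4 and 40.2 on the untreated arrays, 75.8, 86.8 and 106.1 on the PS arrays and 114.3, 124.0 and 613.0 on the Dox arrays. Its 3 groups did not overlap, and the Dox group was carried by replicate 3, the array with the most RARB. Dox against PS medium missed the threshold for MEIS1 (1.12, limma adjusted p = 0.140), also without Dox replicate 3 (0.395, adjusted p = 0.129). It passed when PS replicate 3 and Dox replicate 3 were both left out (0.519, adjusted p = 0.0362). MEIS1 was 3.82-fold above untreated cells with Dox (1.93 ± 0.47, adjusted p = 0.00928), and without Dox replicate 3 the difference was 1.21 (adjusted p = 0.00031). The rise in PS medium missed the threshold when the spread of the Dox arrays was pooled (0.81, adjusted p = 0.234) and passed without Dox replicate 3 (0.81, adjusted p = 0.00146). MEIS2 rose in PS medium (0.83 ± 0.24, adjusted p = 0.0253). That call was lost without untreated replicate 1 or 2 or PS replicate 2 or 3, and with 64 added before the log. MEIS2 was 2.31-fold above untreated cells with Dox (1.21, adjusted p = 0.00347), and without Dox replicate 3 the difference was 0.90 (adjusted p = 0.00418). It was dim, with means of 24.9 in untreated cells, 56.6 in PS medium and 81.2 with Dox. In the dimmest 25% of probe sets lay all 3 untreated, 2 PS and 1 Dox arrays.

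The largest movement on the list was of BHLHE40, a repressor that also answers to hypoxia and other signals. It read 139, 208 and 204 on the untreated arrays, 1426, 1363 and 1868 on the PS arrays and 457, 551 and 391 on the Dox arrays. BHLHE40 rose 7.93-fold in PS medium (2.99 ± 0.18, adjusted p = 6.05e-07) and was 3.23-fold lower with Dox than without (-1.69 ± 0.18, adjusted p = 8.26e-05), the same order of groups as for CYP26A1. TGM2, a transglutaminase, rose by 0.59 (log2) in PS medium (adjusted p = 0.00603). With Dox it was 1.45-fold lower than in PS medium (adjusted p = 0.0168), a call lost without PS replicate 1 or 3 or Dox replicate 1 or 2 (adjusted p 0.0525 to 0.0731). NRIP1, a nuclear receptor corepressor, rose 2.23-fold in PS medium (adjusted p = 1.54e-05) and 2.03-fold with Dox against untreated cells.

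RARRES2, which encodes chemerin, was 2.19-fold lower in PS medium (adjusted p = 8.21e-06) and 2.42-fold lower with Dox against untreated cells, with every differentiated array below every untreated one. ICAM1, an adhesion receptor, fell in both steps, 1.74-fold in PS medium and 1.84-fold more with Dox (adjusted p = 0.00102 and 0.000987). LAMB1, a laminin chain, was higher with Dox than in PS medium by 0.49 ± 0.09 (adjusted p = 0.00413). Against untreated cells it was higher with Dox by 0.752 to 0.925 when single arrays were left out. In PS medium it rose by 0.35 (adjusted p = 0.0162), a call lost without untreated replicate 1 or PS replicate 2. NR2F1, an orphan receptor, was 1.38-fold higher with Dox than in PS medium (adjusted p = 0.00620) and 1.25-fold higher than in untreated cells (adjusted p = 0.0259, lost without any single untreated array or Dox replicate 1). PS medium and untreated cells differed by -0.14 in NR2F1 (adjusted p = 0.314). PLAAT4, once named RARRES3, fell in PS medium by 0.35 and rose with Dox by 0.40 (adjusted p = 0.0328 and 0.0269). TSHZ1, a zinc finger factor, differed by 0.05 between PS medium and untreated cells (adjusted p = 0.816) and was higher with Dox than in untreated cells by 0.46 (adjusted p = 0.0179, lost without untreated replicate 1 or 2 or Dox replicate 2). Against PS medium it rose with Dox by 0.41 (adjusted p = 0.0484), a call lost with median centring (0.0555), when only these 2 groups were fitted (0.102), and without any single untreated array, PS replicate 1 or 3, or Dox replicate 2 or 3 (adjusted p 0.0659 to 0.155).

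**Figure D3:**
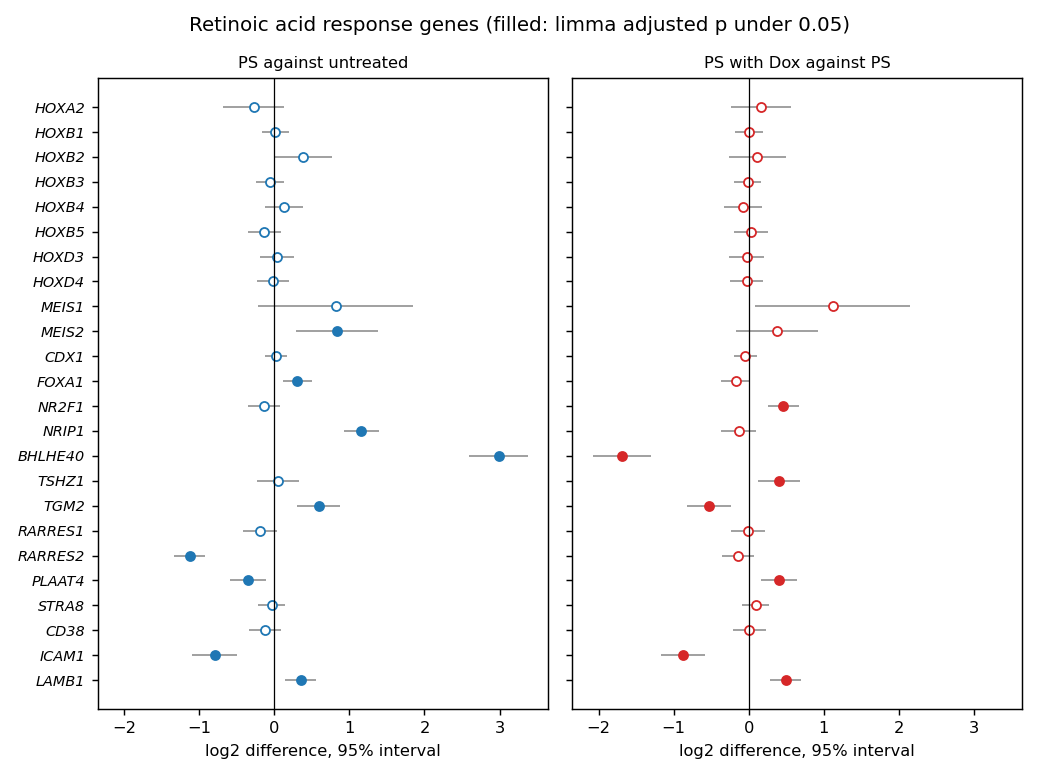
Log2 differences with 95% intervals of the 24 measured retinoic acid response genes for PS medium against untreated cells (left) and PS medium with Dox against PS medium (right); filled points passed limma at an adjusted p of 0.05. The 8 HOX genes lie between -0.28 and 0.39 on the left and between -0.08 and 0.17 on the right, and BHLHE40 is the farthest from 0 on both sides (2.99 and -1.69).

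Of 31 other genes of retinoid metabolism, 26 were measured, and 6 of these were in the dimmest 25% of probe sets on all 9 arrays. In PS medium 3 rose and 2 fell (19.2%, beside 29.8% of all genes), with a median of -0.03. RBP5, a cellular retinol-binding protein, rose 1.87-fold (adjusted p = 0.00106) from 231, 212 and 255 to 422, 346.5 and 594. RBP4, the retinol carrier of plasma, rose 1.49-fold (adjusted p = 0.0328), a call lost without untreated replicate 1 or PS replicate 1 or 2 (adjusted p 0.0837 to 0.134). RETSAT, which saturates retinol, rose 1.33-fold (adjusted p = 0.00430). RBP7, another retinol-binding protein, fell by 0.46 (adjusted p = 0.0136, and 0.0563 without untreated replicate 3), and RDH11, a retinol dehydrogenase, was 1.35-fold lower (adjusted p = 0.00112).

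With Dox against PS medium 5 of the 26 fell and 0 rose by limma, with 8 and 1 at an unadjusted p under 0.05 (19.2% called, beside 17.4% of all genes, median -0.04). RBP4 was 1.77-fold lower (adjusted p = 0.00883) and RBP5 1.70-fold lower (adjusted p = 0.00508), so that both were raised in PS medium and lowered with Dox as CYP26A1 was. The other 3 were RPE65 (1.28-fold, adjusted p = 0.0256), ALDH1A3 (1.23-fold, adjusted p = 0.0367) and BCO1, which cleaves carotene (1.22-fold, adjusted p = 0.0346). RPE65, a retinyl ester isomerase, had a mean of 24.3 in PS medium and BCO1 had one of 46.9. Both genes were in the dimmest 25% of probe sets on every array. Those 3 calls were the ones lost under several alternatives, and the list had 2 calls without PS replicate 1 or 2 and 3 without Dox replicate 1 or 3. With Dox against untreated cells 5 fell and 0 rose by limma (6 and 1 unadjusted), or 6 and 2 with the replicate number as a block, and 2 falls without untreated replicate 3 and 3 without Dox replicate 3. These were RDH12 (1.44-fold lower), BCO1, RDH11, ALDH1A3 and RPE65, all by at most 0.53 on the log2 scale.

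Among the other enzymes that make and clear the acid, ALDH1A3 was lower with Dox than in either other group, as given above. ALDH1A2, the main retinoic acid synthase of the early embryo, is singled out here after its values were seen. It read 74.7, 71.3 and 86.8 on the untreated arrays, 90.8, 84.6 and 87.5 on the PS arrays and 98.8, 83.4 and 223.4 on the Dox arrays. The third Dox array alone stood out, and the differences did not pass (adjusted p = 0.646 in PS medium, 0.272 for Dox against PS medium and 0.0772 for Dox against untreated). ALDH1A1, which makes retinoic acid in many adult tissues, differed by -0.27 in PS medium (adjusted p = 0.153). CYP26B1 and CYP26C1, the relatives of CYP26A1, differed by 0.15 and -0.05 in PS medium (adjusted p = 0.346 and 0.799) and by 0.07 and -0.04 with Dox (0.723 and 0.861).

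Of 10 listed receptor partners and cofactors, 7 were measured. In PS medium 3 rose and 0 fell by limma, with 0 falls at an unadjusted p under 0.05 (42.9%, beside 29.8% of all genes). RXRG, an RXR partner of low signal, rose 2.16-fold from 27.2, 33.3 and 30.8 to 53.0, 99.3 and 102.8 (adjusted p = 0.00587). RXRA, the broadly expressed partner, rose 1.24-fold (adjusted p = 0.00912). NCOA1, a coactivator, rose 1.39-fold in PS medium (adjusted p = 0.000602) and a further 1.34-fold with Dox (adjusted p = 0.00225). NCOA2, its relative, rose 1.37-fold with Dox (adjusted p = 0.00225). These 2 were the only calls with Dox against PS medium (28.6%, beside 17.4%). RXRG with Dox read 26.4, 57.0 and 47.5 and differed from PS medium by -0.75 (adjusted p = 0.0623, and 0.00384 with the replicate number as a block). With Dox against untreated cells NCOA1 (1.85-fold), NCOA2 (1.23-fold) and RXRA (1.17-fold) rose, and limma called 0 falls, also before adjustment. Without untreated replicate 3, 1 call was left in that comparison in place of 3, and the RXRA call was also lost without any other single untreated or Dox array.

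**Figure D4:**
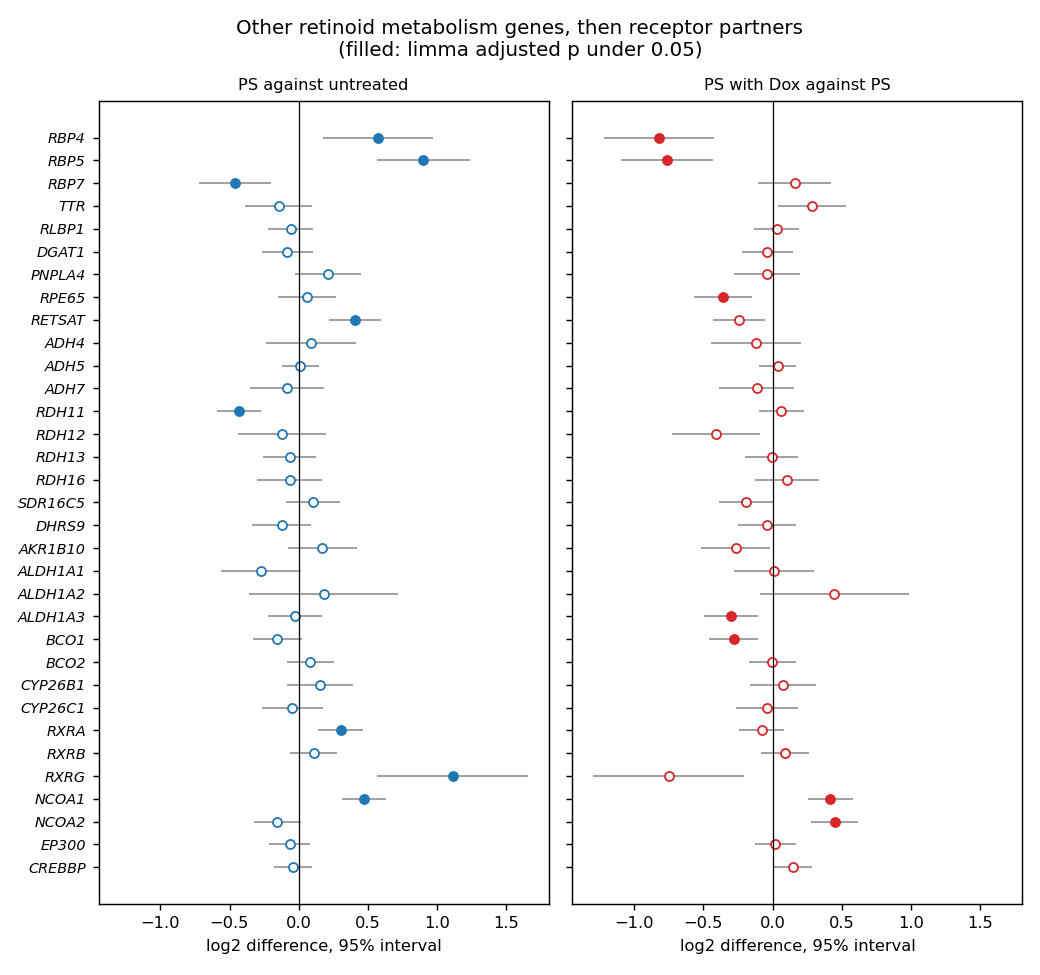
Log2 differences with 95% intervals of 26 other retinoid metabolism genes (RBP4 to CYP26C1) and 7 receptor partners (RXRA to CREBBP) for PS medium against untreated cells (left) and PS medium with Dox against PS medium (right); filled points passed limma at an adjusted p of 0.05. RBP4 (0.58, then -0.82) and RBP5 (0.90, then -0.76) passed on both sides in opposite directions.

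The genes whose course over the 9 arrays was most like that of RARB were sought among 352 genes with an SD of at least 1 on the log2 scale. The 5 nearest were LRRN3, NPNT, STEAP4, CA10 and NTRK2, with Pearson correlations from 0.9895 to 0.9966 over 9 arrays that fall into 3 groups. LRRN3, a leucine-rich repeat membrane protein, read 97.0, 101.9 and 104.3 on the untreated arrays, 108.6, 119.4 and 81.9 on the PS arrays and 1746, 1308 and 4921 on the Dox arrays. NPNT, which encodes the matrix protein nephronectin, read 1613, 1262 and 2932 with Dox and at most 212 elsewhere. All 5 were dim or low in the first 2 groups and had their highest value on the third Dox array, at 2.04 to 5.05 times the mean of the other 2, which is part of what the likeness measure selects. On that same array ISL1 and KRT7, 2 of the 4 amnion and trophectoderm markers, were at 1.64 and 3.16 times the mean of the other 2, while GATA3 was at 1.08 and TFAP2A at 0.95 times. The 4 markers summed to 587 to 698 in untreated cells, 9332 to 11854.5 in PS medium and 22835 to 24186.5 with Dox, none was at 0, and 4 of 4 rose with Dox against PS medium. In PS medium against untreated cells 3 rose and KRT7 fell (-1.75, adjusted p = 0.00289). KRT7 had means of 347.9 in untreated cells, 90.4 in PS medium and 380.3 with Dox, a course that the sums do not show. The part of these 4 markers in the RARB values was not tested.

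**Figure D5:**
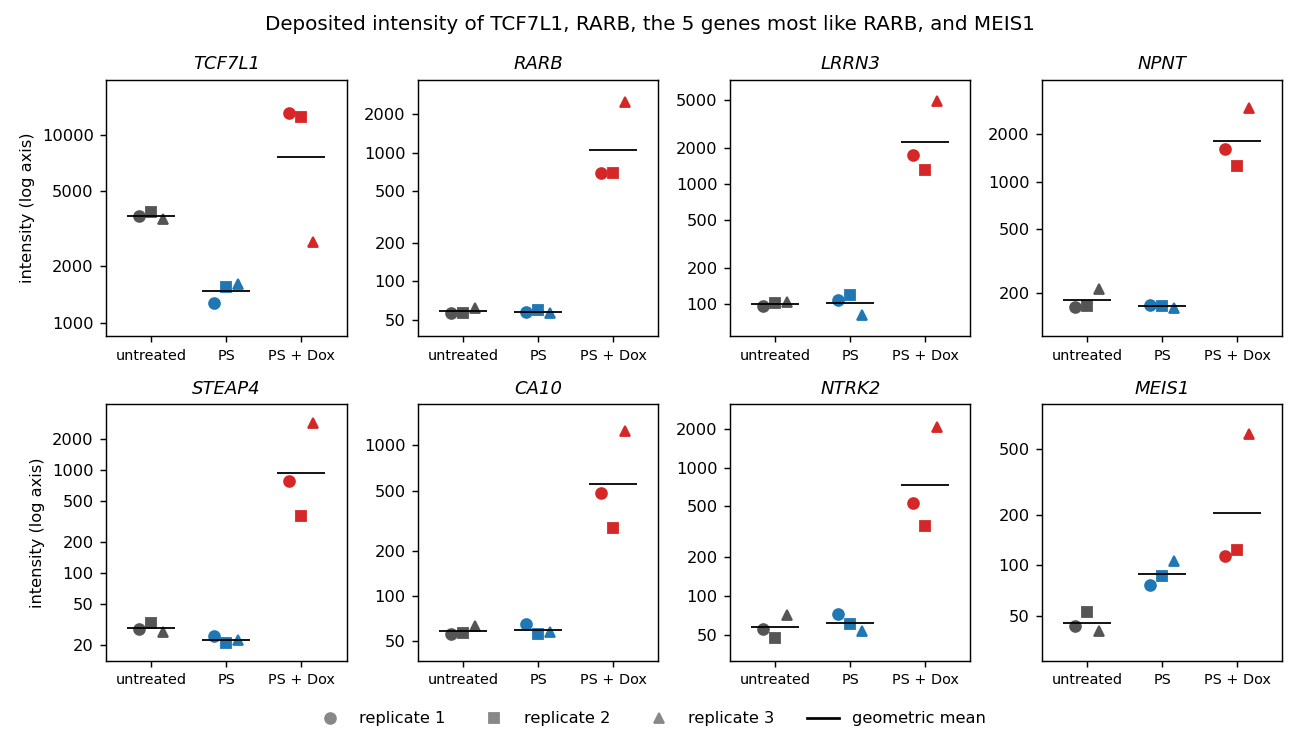
Deposited intensity (log axis) of TCF7L1, RARB, the 5 genes most like RARB and MEIS1 on each array, by group, with bars at the geometric mean. On the third Dox array (red triangle) TCF7L1 is the lowest of its group (2699), and RARB (2465), the 5 similar genes and MEIS1 (613) are the highest.

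The 5 genes most like LRAT were SORBS2, SLC24A2, CRYBG1, IGSF21 and ADAMTS8, with correlations from 0.9882 to 0.9953. SORBS2, an adaptor of the actin cytoskeleton, read 1187, 1225 and 1288 on the untreated arrays, 29.1, 43.0 and 24.6 on the PS arrays and 15.1, 13.7 and 13.7 on the Dox arrays. IGSF21, an immunoglobulin superfamily protein, had means of 1608, 412 and 378 in the 3 groups. All 5 were high in untreated cells and lower on every differentiated array, with no return under Dox, a course that the likeness measure itself selects.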

How the data were processed

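RNA of 9 samples, 3 per group by the labels' titles, was measured on Affymetrix arrays. The deposited unit is linear intensity, 1 value per probe set and array, made with Affymetrix Expression Console 1.1.1 and PLIER 2.0 per the submitters' processing notes. How background was corrected, how arrays were normalized and which build was used is not given in the sources used here. Of 33297 probe sets, 19460 had 1 symbol in the platform annotation, 1754 had several and 12083 none listed; 19429 were matched by gene number to GRCh38.p14 symbols. Each gene took its brightest probe set (18417 genes). Values were quantile-normalized as log2(intensity + 16), since array medians spanned 0.103 on that scale. Group means were fitted in limma 3.58.1 (lmFit, eBayes with a trend, 6 residual degrees of freedom) under R 4.3.3 with data.table (version 1.17.8), and adjusted by Benjamini-Hochberg over all genes. Plots and sequence searches used Python 3.11.15 with matplotlib 3.10.9 and pandas 2.3.3. For arrays, their number limits the precision.

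The members and lists were chosen with earlier results of these data known. Named were all members, TCF7L1, up to 6 called genes per list and comparison with the largest differences, and the 5 genes most like LRAT and RARB; HOXB1, CDX1, ALDH1A1, ALDH1A2, CYP26B1, CYP26C1, HOXB2, PLAAT4 and marker genes were named outside that rule. Probe sets shared by near-identical genes cannot separate them. Arrays of the same replicate number deviated together for Dox against PS medium (correlations over genes 0.245, 0.428 and 0.246) and Dox against untreated (0.246, 0.309 and 0.297). The numbers were thus taken to pair those samples, from the data and not the labels. For PS medium against untreated they were 0.0856, 0.397 and 0.271, each above the highest for another number (0.0486, 0.0474 and -0.101). Pairs in the comparisons with Dox imply pairs in this one, where replicate 1 shows it only weakly. The main fit did not use these pairs in any comparison, and the replicate number entered as a block only in an alternative. Tested on simulated data for Dox against PS medium over 18417 genes, the fit recovered 100% of 100 genes changed 2-fold and 100% of 100 changed 4-fold, with 15 false calls. The simulated noise was independent between arrays and drawn from the spread that the same fit had estimated. It held no array that stood apart and no pairing, so it checks the fit and does not give the power in these data. Alternatives were log offsets of 1 and 64, deposited or median-centred values, a filter on dim genes, all probe sets, the 2 groups alone, the replicate block and leaving out arrays. Leaving out PS replicate 3 and Dox replicate 3 together was added after seeing the data.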

Additional observations from a re-analysis of the deposited data

How the results depend on the processing

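Calls of RDH10, DHRS3 and CYP26A1 kept their direction and side of the threshold in each comparison where they were called, under all alternatives run. Over the 6 tested members and 3 comparisons, 300 of 324 alternative values kept their side of the threshold, 15 lost a call and 9 gained one. Of called values 0 turned direction. Differences that were not called could change sign and still count among the 300. STRA6 in PS medium against untreated cells, for example, went from 0.153 to -0.195 without PS replicate 3. Counts over lists moved more, and apart from having fewer genes or arrays to test the cause was not tested. Without the dimmest 25% of genes, other retinoid metabolism genes gave 3 calls in place of 5 in PS medium, 2 in place of 5 with Dox against PS medium and 2 in place of 5 with Dox against untreated cells. That list gave 3 calls for Dox against PS medium when those groups were fitted alone, and 3 without PS replicate 3 and Dox replicate 3. Leaving out 1 array at a time gave 2 to 4 calls for it with Dox against PS medium and 2 to 6 with Dox against untreated cells. The same step gave 5 to 10 response genes in PS medium, 4 to 6 with Dox against PS medium, and 1 to 3 receptor partners with Dox against untreated cells. Over all genes it gave 4161 to 5634, 2405 to 3076 and 4166 to 6028 calls in the 3 comparisons. The replicate block gave 8 calls in place of 5 in the metabolism list with Dox against untreated cells. Besides the calls given with the results, it gained RDH12 with Dox against PS medium (adjusted p = 0.0226), RBP7 with Dox against untreated cells (0.0462) and TCF7L1 in PS medium (0.0305), and among the genes named by rule it changed no other call. Genes named outside that rule have no alternatives here. In PS medium against untreated cells, where replicate 1 shows the pairing only weakly, the block gave 4 of 6 members. Members with signals near the dim end, LRAT after differentiation and RARB without Dox, have fold changes that depend on the value added before the log.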
